A study of Rattus norvegicus with 8 samples.

Results

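Cholinergic and motor neuron genes were followed in thoracic spinal cord of rats with a thoracic spinal cord injury and of rats with a laminectomy alone. The set holds 9 genes chosen by symbol. Chat, Slc18a3, Slc5a7 and Ache make, store, recover and split acetylcholine. Isl1, Mnx1, Nos1, Esrrg and Chodl were taken as genes of motor neurons or of classes of them. Their expression in other cells of the cord was not examined. A gene was taken where the platform annotation gave a probe set that symbol alone, which held for 7 of the 9, each with 1 probe set, among 18166 genes measured. Ache and Mnx1 were not analysed here.

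The samples were 8 arrays (Affymetrix Rat Gene 2.0 ST), 4 labelled as injured (SCI) and 4 as sham, from adult males of the Long Evans strain (age near 175 days, weight near 400 g). The injured rats had a thoracic spinal cord injury and the sham rats a laminectomy. Both groups recovered for 4 weeks after surgery and then ate a high-fat diet with 40% fat. All arrays therefore share the high-fat diet. For every array the sample record also lists 8 study weeks and a chow with 17% fat. How the chow was used was not examined here. The piece of cord is given as thoracic segments 10 to 11 in one label and 11 to 12 in another. The labels do not place it relative to the lesion. Each array is labelled as its own sample. The sample titles also carry a number that differs between all 8 arrays and that no label explains. It may or may not be an animal number, so the p-values measure the spread between these samples, which may in part be technical. The deposited values are log2 levels from RMA (robust multi-array average), which adjusts background, equalises the arrays and gives 1 value per probe set. Levels of different probe sets cannot be set against each other. A log2 difference is given as SCI minus sham, and a gene was called at an adjusted p under 0.05.

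In the spinal cord, acetylcholine is the transmitter of somatic motor neurons, of the preganglionic neurons of the autonomic system and of small groups of interneurons. Its neurons take up choline through the transporter Slc5a7, join it to an acetyl group with the enzyme Chat, load the product into vesicles through Slc18a3, and end its action with the esterase Ache. Thoracic cord holds the sympathetic preganglionic column, many of whose neurons also carry the neuronal nitric oxide synthase Nos1, so these genes read out more than somatic motor neurons there. In mice, Esrrg is high in the gamma motor neurons that serve muscle spindles and Chodl marks fast alpha motor neurons.

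The promoter windows of 4 members are shown because they include the locus that Chat and Slc18a3 share and the windows of measured members in which a searched motif was found. They come from RefSeq on the GRCr8 build, cover 250 bases before to 50 after each annotated start and read 5′ to 3′ on the gene's own strand. Capitals mark motif matches, and a window without capitals held none. Chat lies at chr16:7723367-7723666, Slc18a3 at chr16:7722765-7723064, Slc5a7 at chr9:7953460-7953759 and Nos1 at chr12:44371788-44372087, all on the minus strand.
Chat: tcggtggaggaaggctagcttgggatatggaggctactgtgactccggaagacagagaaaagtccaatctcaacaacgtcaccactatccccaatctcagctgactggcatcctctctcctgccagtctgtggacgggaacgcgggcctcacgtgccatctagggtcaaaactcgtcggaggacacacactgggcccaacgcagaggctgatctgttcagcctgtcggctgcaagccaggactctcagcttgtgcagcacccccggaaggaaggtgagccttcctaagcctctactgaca
Slc18a3: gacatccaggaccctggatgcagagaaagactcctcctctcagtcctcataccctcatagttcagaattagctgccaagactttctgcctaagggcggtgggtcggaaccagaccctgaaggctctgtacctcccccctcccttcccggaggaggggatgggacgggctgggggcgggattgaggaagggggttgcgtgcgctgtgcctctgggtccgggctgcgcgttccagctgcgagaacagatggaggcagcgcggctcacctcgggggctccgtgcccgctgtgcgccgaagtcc
Slc5a7: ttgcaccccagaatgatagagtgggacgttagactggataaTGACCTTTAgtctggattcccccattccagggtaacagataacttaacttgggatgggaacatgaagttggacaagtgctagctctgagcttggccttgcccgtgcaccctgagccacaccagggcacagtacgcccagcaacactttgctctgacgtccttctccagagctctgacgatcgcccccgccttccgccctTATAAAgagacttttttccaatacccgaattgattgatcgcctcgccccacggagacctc
Nos1: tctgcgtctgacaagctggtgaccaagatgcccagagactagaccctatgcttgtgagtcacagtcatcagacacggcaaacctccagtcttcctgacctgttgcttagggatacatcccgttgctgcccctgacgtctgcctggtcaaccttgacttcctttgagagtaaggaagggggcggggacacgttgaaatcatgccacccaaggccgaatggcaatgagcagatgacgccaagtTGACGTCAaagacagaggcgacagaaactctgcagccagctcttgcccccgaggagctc
The Slc18a3 gene lies within the annotated Chat gene on the same strand, and 302 bases part their windows. Of the 9 genes, all had a window, and Esrrg had 4, so that 12 windows were searched on both strands for 3 motifs that do not share letters in any match. The element bound by oestrogen-related receptors, the family of Esrrg, was written as TNAAGGTCA and stood once, in Slc5a7 at base -209 on the opposite strand. It occurs in 1.2% of 33469 rat promoter windows of that length. The cAMP response element TGACGTCA stood once, in Nos1 at base -9, and occurs in 1.83% of windows. The TATA box TATAAA stood in Slc5a7 at base -10 and in Mnx1, and occurs in 14.2% of windows. These matches are letters in a window and say nothing of binding.

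Of the 7 genes, 1 was lower in injured cord, 0 were higher and 6 did not pass the test (limma, Benjamini-Hochberg over all 18166 genes). Over all genes 14.2% were called, 7.06% lower and 7.1% higher. At an unadjusted p under 0.05 there were 4 of the 7, where 26.7% of all genes reached it. That number was 2 without SCI 3 and 5 without SCI 2. The called gene was Esrrg, whose level fell by 37.3% in SCI. The groups did not overlap in 2 of the 7 genes, against 20.3% of all genes. The differences of 6 genes were negative and that of Isl1 was positive. Their median was -0.29, against -0.01 over all genes. In whole tissue, fewer neurons, less RNA per neuron and a changed mix of cells cannot be told apart as sources of a difference.

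**Figure D1:**
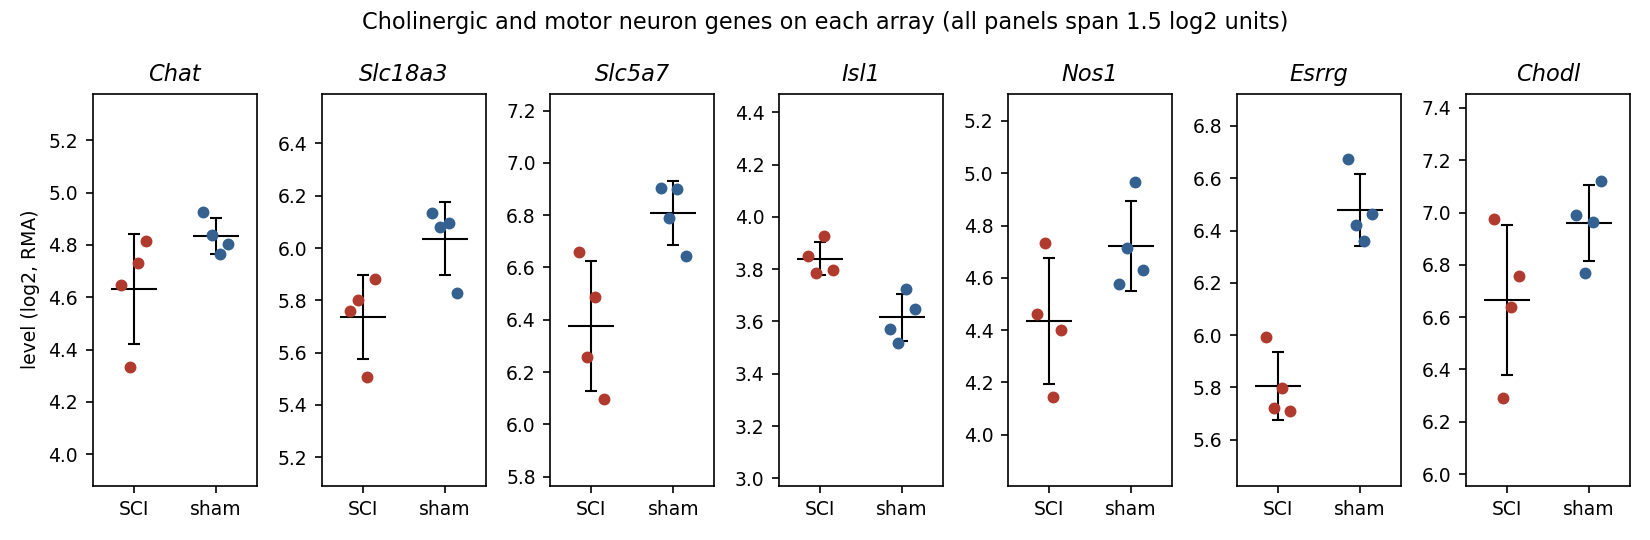
Level of each gene on each array (log2, RMA), with SCI arrays in red on the left and sham arrays in blue on the right. Bars show mean ± SD (n = 4 each). All 4 SCI arrays lie below all sham arrays in Esrrg and above all sham arrays in Isl1, and in the other 5 genes the groups overlap.

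Among the genes that handle acetylcholine, the differences were negative and none passed the test. Chat, the synthesising enzyme (probe set 17710195), had log2 levels of 4.65, 4.33, 4.73 and 4.81 in SCI 1 to 4, against 4.93, 4.84, 4.76 and 4.80 in sham 1 to 4. SCI 2 was the low array, SCI 4 lay within the sham values, and the SD in the injured group was 3.06 times that in sham. The difference was -0.20 (SE 0.12, 95% confidence interval -0.46 to 0.05, limma adjusted p = 0.31), and it was -0.10 without SCI 2.

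Slc18a3, the vesicular transporter (17710214), had levels of 5.76, 5.80, 5.51 and 5.88 in SCI, against 6.14, 6.08, 6.10 and 5.83 in sham. SCI 4 and sham 4 crossed, and the other 3 SCI arrays lay below every sham array. The difference was -0.30 (SE 0.11, interval -0.55 to -0.05, limma adjusted p = 0.11), and it was -0.15 (limma adjusted p = 0.58) without SCI 3, sham 1 and sham 2. Slc5a7, the choline transporter whose supply limits acetylcholine synthesis (17856878), had levels of 6.66, 6.26, 6.49 and 6.10 in SCI, against 6.90, 6.79, 6.90 and 6.64 in sham. The groups overlapped through SCI 1 and sham 4 alone. Its difference was -0.43, a change of -26.0% (SE 0.13, interval -0.72 to -0.14), and its limma adjusted p of 0.0506 lay at the threshold. It passed under 5 of 16 alternatives. Among the fits without 1 array, it passed in 1, without SCI 1 (-0.53, limma adjusted p = 0.0266), and the other adjusted p ran up to 0.13 (without SCI 2, -0.39). Without SCI 3, sham 1 and sham 2 the adjusted p was 0.23. The intervals of these 3 genes overlap, and their differences were not tested against each other.

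Of the genes taken as motor neuron genes, Esrrg was lower in SCI, in RNA of whole tissue. Esrrg, an orphan nuclear receptor of the oestrogen-related family (17683033), had levels of 5.99, 5.72, 5.80 and 5.71 in SCI, against 6.67, 6.42, 6.36 and 6.46 in sham. Every SCI array lay below every sham array, which held for 10.9% of all genes in that direction. Means were 5.81 ± 0.13 in SCI and 6.48 ± 0.14 in sham (SD, n = 4 each). The difference was -0.67 (SE 0.11, interval -0.91 to -0.44, limma adjusted p = 0.00233). Without any single array it was between -0.74 and -0.61 and stayed past the threshold, whereas leaving out SCI 3, sham 1 and sham 2, which stood apart on a principal component, gave -0.60 with an adjusted p of 0.0547.

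Isl1, a LIM homeodomain factor of motor neuron identity (17745409), had levels of 3.85, 3.79, 3.93 and 3.80 in SCI, against 3.57, 3.52, 3.73 and 3.65 in sham. Every SCI array lay above every sham array, which held for 9.36% of all genes in that direction. The difference was 0.22 (SE 0.09, interval 0.02 to 0.42), and it did not pass over all genes (limma adjusted p = 0.14). A two-sided exact permutation test gave an unadjusted p of 0.0286, the smallest that 70 assignments of 8 arrays can give. Every gene whose groups do not overlap gets this value, Esrrg among them, so it adds nothing to that separation. Without SCI 3, sham 1 and sham 2 the difference was 0.12. The signal was dim, below the median of all genes of 4.74.

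Nos1, the neuronal nitric oxide synthase (17678411), had levels of 4.46, 4.73, 4.15 and 4.40 in SCI, against 4.57, 4.72, 4.96 and 4.63 in sham. SCI 2 lay within the sham values and the other 3 SCI arrays below them. The difference was -0.29 (SE 0.14, interval -0.59 to 0.02, limma adjusted p = 0.22). Without SCI 3 it was -0.19. Chodl, the C-type lectin chondrolectin (17664380), had levels of 6.98, 6.29, 6.64 and 6.76 in SCI, against 6.99, 6.77, 6.96 and 7.12 in sham. SCI 1 lay among the sham arrays and SCI 2 was the lowest. The difference was -0.29 (SE 0.14, interval -0.61 to 0.03, limma adjusted p = 0.23), and it was -0.17 without SCI 2.

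**Figure D2:**
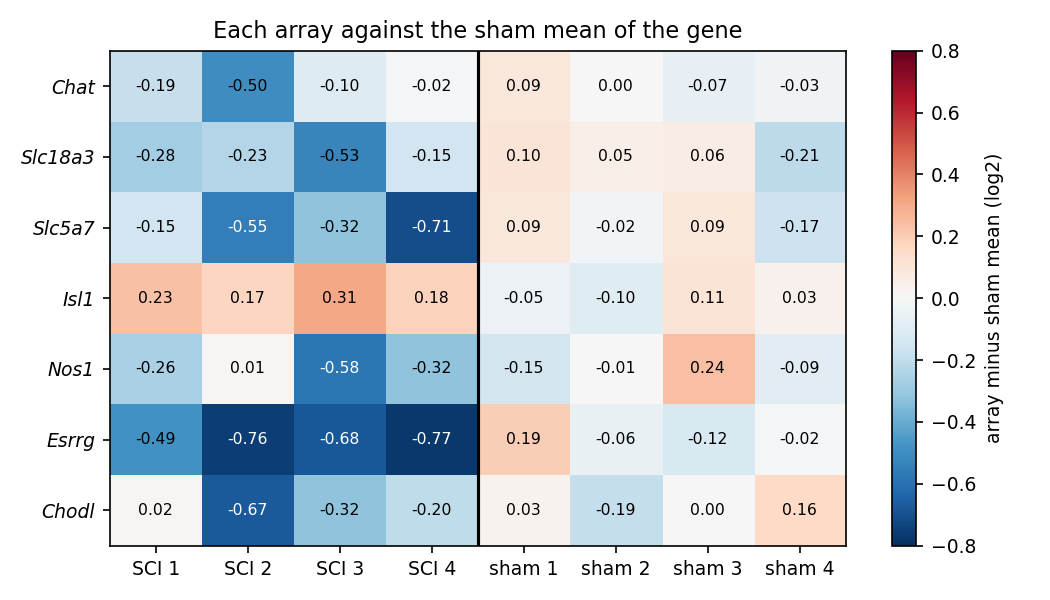
Each array's log2 level minus the sham mean of the same gene, with genes down the page, SCI arrays left of the line and sham arrays right of it. Blue is below the sham mean and red above. Esrrg is between 0.49 and 0.77 below the sham mean on every SCI array, whereas the SCI array farthest below it is SCI 2 in Chat and Chodl, SCI 3 in Slc18a3 and Nos1, and SCI 4 in Slc5a7.

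The injured arrays did not order the genes alike. SCI 2 was the lowest SCI array in 3 of the 7 genes (Chat, Chodl and Isl1), SCI 3 in 2 (Slc18a3 and Nos1) and SCI 4 in 2 (Slc5a7 and Esrrg). SCI 1 was the lowest in 0 and the highest in 3. The SD was larger among SCI than among sham arrays in 5 of the 7 genes, all but Isl1 and Esrrg. Over the 8 arrays, deviations from group means correlated in both directions between genes. The 21 pairwise r had a median of -0.004 and ran from -0.77 (Chat with Nos1) to 0.64 (Slc5a7 with Esrrg), and 10 were positive. Chat and Slc18a3, which share a locus, had an r of -0.03. Each r rests on 8 points that share their arrays and is given as a description.

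The 5 genes whose deviations were most like those of the mean of Chat, Slc18a3 and Slc5a7 were Lrrc43 (r = 0.99), Klhl10 (0.97), Anapc15 (0.96), Zfp668 (0.95) and Ankrd7 (0.95), over 8 arrays. None of these 5 was called between SCI and sham. The 5 most like Esrrg were UST4r (0.99), Lhfpl2 (0.98), Cldn34b (0.98), Il19 (0.98) and Tsr1 (0.98), of which Lhfpl2 was called higher (1.03, limma adjusted p = 1.4e-04). They are the highest values of r among all genes tested, so a high r was bound to occur.

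Pan-neuronal genes were lower in the injured cord. Of 18 pan-neuronal genes measured, 17 were lower and 0 higher, and 17 of 18 also had an unadjusted p under 0.05, with a median of -0.52. Their mean level was 8.44 ± 0.10 in SCI and 8.95 ± 0.06 in sham (SD, n = 4 each), a difference of -0.51. To set the members against it, that mean was subtracted from every gene on each array and limma was fitted again over all genes. By this measure 74.7% of all genes were called, and 74.3% of all genes were called higher. Of the 7 genes, 2 were called, both higher relative to the pan-neuronal mean, a smaller share than among all genes.

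Relative to the pan-neuronal mean, Isl1 had 0.73 (SE 0.11, limma adjusted p = 4.3e-04) and Chat 0.30 (SE 0.11, interval 0.06 to 0.55, limma adjusted p = 0.0297). Isl1 lies below the median of all genes of 4.74 in both groups, where RMA tends to compress differences. Chat lies near that median, with means of 4.63 in SCI and 4.83 in sham. A gene with no difference between the groups comes out higher by this measure. Chat lost this call without any single array except SCI 2 or sham 1, with adjusted p of 0.0504 to 0.0797, and with the title number as covariate (0.12). Esrrg had -0.17 (interval -0.44 to 0.11, limma adjusted p = 0.24) and Slc5a7 0.07 (interval -0.25 to 0.39, limma adjusted p = 0.66), so a difference of either gene from the pan-neuronal change was not detected with these arrays. Slc18a3, Nos1 and Chodl had 0.21, 0.22 and 0.21, with intervals that include 0.

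**Figure D3:**
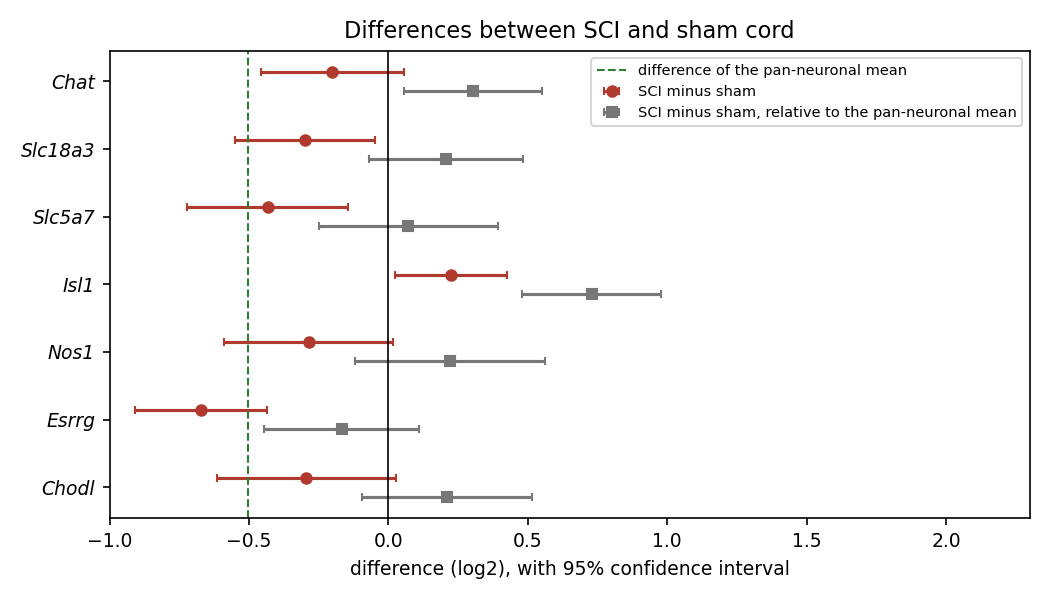
Difference between SCI and sham (log2) for each gene, with 95% confidence intervals. Red circles are SCI minus sham, grey squares the same after subtracting each array's pan-neuronal mean, and the dashed line is the difference of that mean, -0.51. The red intervals of Slc18a3, Slc5a7, Nos1, Esrrg and Chodl span the dashed line, and those of Chat and Isl1 lie to its right.

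Macrophage genes moved the other way on the same arrays. All 15 macrophage and microglia genes measured were higher in SCI, and their summed linear signal was 4845 to 6592 on SCI arrays and 1841 to 2217 on sham arrays. Oligodendrocyte and myelin genes were lower in 8 of 11, Schwann cell genes higher in 3 of 6, and astrocyte genes higher in 2 and lower in 1 of 7. The part of this changed mix in the members' differences was not tested between groups, where it cannot be told apart from the injury. With each array's deviation of the macrophage mean from its group mean as a covariate, which leaves the size of a group difference as it is, Esrrg had a limma adjusted p of 0.00378 and Slc5a7 one of 0.0485, and 14.3% of all genes were called. That call of Slc5a7 was lost without any single array except SCI 1. Skeletal muscle genes were called in 0 of 4 and red blood cell genes in 0 of 4 (limma, 0 of 4 in each list also at an unadjusted p under 0.05).

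The other genes of acetylcholine handling fell into both directions. Of 19 measured, 3 were higher, 4 lower and 12 did not pass, with a median of -0.14. That is 36.8% called, against 14.2% of all genes. Acly, which makes the acetyl-CoA used for acetylcholine and also for lipid synthesis, had levels of 7.87, 7.67, 7.80 and 7.92 in SCI, against 8.57, 8.61, 8.55 and 8.56 in sham (-0.76, SE 0.09, limma adjusted p = 4.4e-04). Its groups were far apart, and the call held in all 16 alternatives. Lynx1, a membrane protein that restrains nicotinic receptors, fell by 0.60 (SE 0.10), while Slc44a2, a choline transporter-like protein of wide expression, rose by 0.54 (SE 0.09), and Pcyt1a, which draws choline into phosphatidylcholine, rose by 0.49 (SE 0.10). Prima1, which anchors acetylcholinesterase in brain membranes and was chosen after its value was seen, fell by 0.41 (SE 0.11, limma adjusted p = 0.037), a call lost under 8 of 16 alternatives, among them without SCI 1, SCI 3, SCI 4, sham 1, sham 3 or sham 4.

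Of 16 nicotinic receptor subunits, 3 were lower and 1 higher (25% called, against 14.2% of all genes), with a median of -0.14. Chrna4, a subunit of the main high-affinity neuronal receptor, had levels of 4.61, 4.72, 5.18 and 5.05 in SCI, against 5.91, 5.62, 5.95 and 5.66 in sham. The groups did not overlap, and the level fell by 46.3% in SCI (-0.90, SE 0.14, limma adjusted p = 0.00245). Chrna5 fell by 0.71 (SE 0.18) and Chrna7, which forms the homomeric alpha-bungarotoxin receptor, fell by 0.43 (SE 0.12). The call of Chrna7 was lost without any single array except sham 3, and that of Chrna5 without SCI 2, SCI 4, sham 1 or sham 2. Without SCI 2, sham 1 or sham 2 the list had 2 called genes, 1 higher and 1 lower. Chrnb3 rose, with levels of 4.48, 5.11, 4.72 and 4.23 in SCI, against 3.28, 3.70, 3.76 and 4.00 in sham (0.95, SE 0.20, limma adjusted p = 0.00924).

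Of 5 muscarinic receptors, 1 was lower (20% called, against 14.2% of all genes). Chrm2, a Gi-coupled receptor found on motor neurons opposite cholinergic C-boutons, had levels of 6.51, 6.56, 7.09 and 7.15 in SCI, against 7.46, 7.51, 7.53 and 7.38 in sham. The SCI arrays parted into a lower and a higher pair, all below sham (-0.64, SE 0.15, limma adjusted p = 0.0174, and not past it without SCI 2). Of 8 genes of C-boutons and the nerve-muscle junction, 1 was lower (12.5% called). It was the growth factor Nrg1 (-0.49, SE 0.12), whose call was lost without SCI 3. That list had 2 genes lower without SCI 2, and 1 higher and 1 lower without sham 3.

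Few motor neuron identity factors passed the test. Of 20 measured, 2 were higher and 0 lower (limma, 0 lower also at an unadjusted p under 0.05), with a median of 0.08. That is 10% of the list, against 14.2% of all genes called and 7.1% called higher. Lmo4, a LIM-only cofactor expressed in many cell types, rose by 1.13 (SE 0.09, limma adjusted p = 5.1e-05), and Foxp1, a forkhead factor of limb motor neurons that is expressed in other cells as well, rose by 0.38 (SE 0.09). Foxp1 lost its call without SCI 2, SCI 3 or sham 4. Of 24 genes of motor neuron classes, 4 were higher and 7 lower (45.8% called, against 14.2% of all genes), with a median of -0.19. Prkcd, a protein kinase C, rose by 0.81 (SE 0.10), the retinaldehyde dehydrogenase Aldh1a2 by 0.79 (SE 0.13) and the GDNF co-receptor Gfra1 by 0.56 (SE 0.11), while the vesicle protein Sv2a fell by 0.68 (SE 0.10). None of these 4 is confined to motor neurons. Of 24, the number called was 7 without SCI 1, SCI 2, sham 1 or sham 3.

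Around Esrrg, 0 of 6 oestrogen-related receptors and coactivators passed (limma, 2 of 6 at an unadjusted p under 0.05), and 1 was called higher without SCI 2. The coactivators Ppargc1b and Ppargc1a, which drive mitochondrial genes with these receptors, had 0.53 (SE 0.17, limma adjusted p = 0.058) and -0.32 (SE 0.12, limma adjusted p = 0.11). The sister receptors Esrra and Esrrb, chosen after their values were seen, had -0.07 (SE 0.15) and 0.23 (SE 0.11). Around Nos1, 5 of 13 nitric oxide signalling genes were lower and 1 higher (46.2% called, against 14.2% of all genes), with a median of -0.16. Gucy1b1, a subunit of the cyclase that nitric oxide activates, fell by 0.67 (SE 0.12), the cGMP-dependent kinase Prkg2 by 0.67 (SE 0.14) and the postsynaptic scaffold Dlg4 by 0.41 (SE 0.10), while the cGMP phosphodiesterase Pde9a rose by 0.86 (SE 0.11). Dlg4 lost its call without SCI 2.

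Genes of the other fast transmitters were followed as well. All 5 inhibitory transmitter genes measured were lower, with a median of -0.64, among them Slc6a5 (-0.67, SE 0.11) and Slc6a9 (-0.55, SE 0.10), which take up glycine, Gad1 (-0.58, SE 0.10), which makes GABA, and the vesicular transporter Slc32a1 (-0.64, SE 0.13). Of 5 excitatory genes 2 were lower, the vesicular glutamate transporters Slc17a6 (-1.04, SE 0.14) and Slc17a7 (-0.52, SE 0.14). The median of these 5 was -0.02. Chat, Slc18a3 and Slc5a7 had -0.20, -0.30 and -0.43 on the same arrays, and no test compared the transmitter classes. Signal differed widely between these probe sets, with sham means of 4.83 for Chat, 7.62 for Slc17a6 and 10.00 for Slc6a9. RMA tends to compress differences of dim probe sets, so the sizes cannot be ranked between classes. Without SCI 2, sham 1, sham 2, sham 3 or sham 4, Slc17a7 did not pass.

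**Figure D4:**
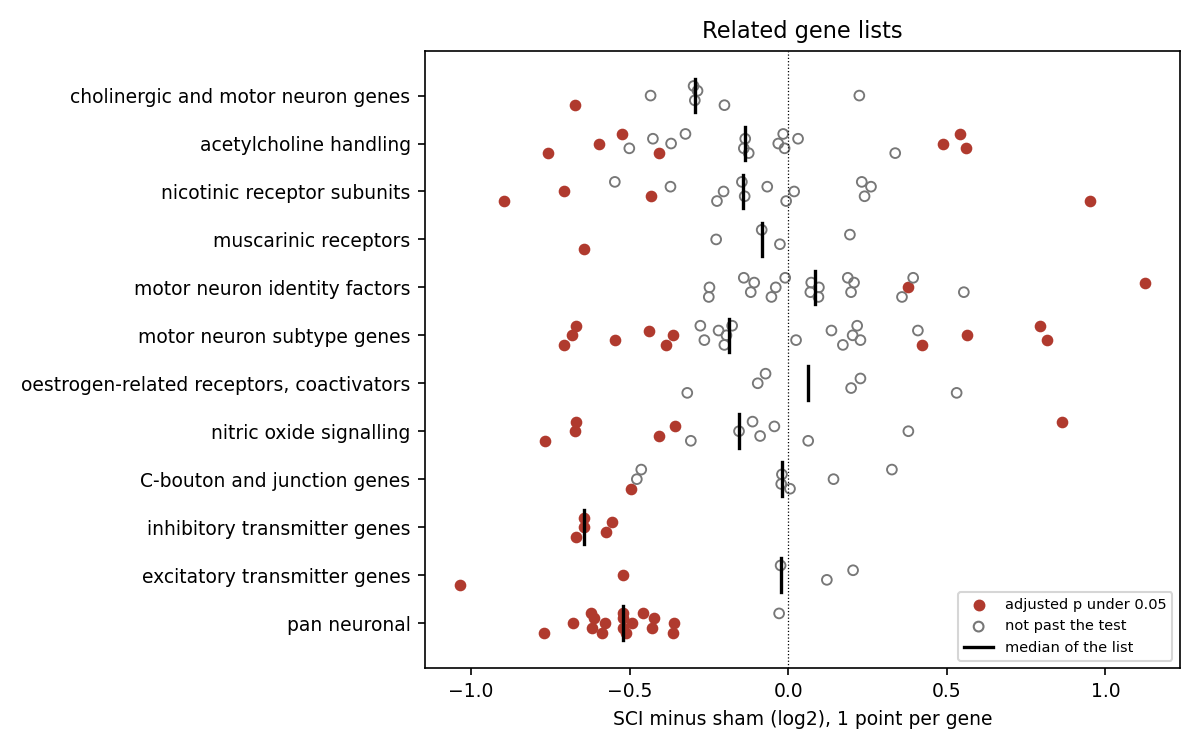
SCI minus sham (log2) for each gene of the related lists and of the pan-neuronal list, 1 point per gene. Called genes are filled and a bar stands at each list's median. The bar of the cholinergic and motor neuron genes lies at -0.29. The nearest medians are those of the pan-neuronal genes (-0.52) below it and of the genes of motor neuron classes (-0.19) above it. The inhibitory list has -0.64 and the nicotinic subunits -0.14.

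**Figure D5:**
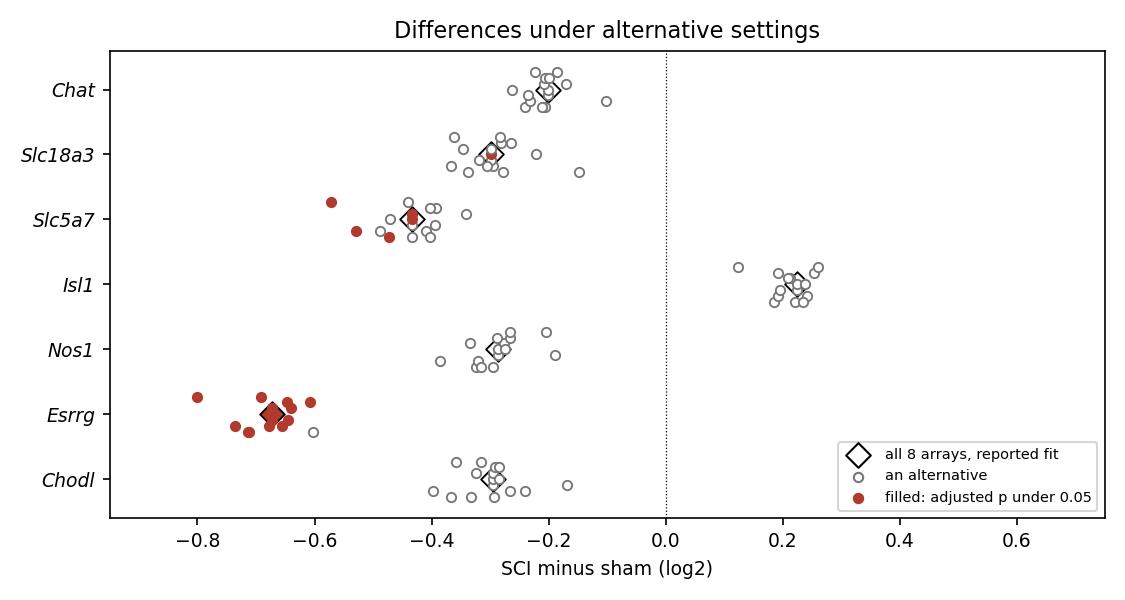
SCI minus sham (log2) of each gene in the reported fit (diamond) and under each alternative (circles), filled where the adjusted p was under 0.05. Esrrg lies between -0.80 and -0.60 and is filled in 15 of 16 alternatives, and Isl1 lies right of 0 in all 15 of its alternatives with no circle filled.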

How the data were processed

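The deposited values are log2 levels of 36685 probe sets on 8 arrays, made by the authors with Affymetrix Expression Console and RMA, per the submitters' processing notes. No version, setting or genome build was stated. RMA tends to compress differences of dim probe sets, and no detection calls were used. Array medians were 3.73 to 3.81. The platform annotation gave 18511 probe sets 1 symbol, and the probe set with the highest mean was kept per symbol, which left 18166 genes. Group differences came from limma 3.58.1 under R 4.3.3 (eBayes after lmFit, two-sided, no covariate, Benjamini-Hochberg over all genes). The procedure was run on simulated data with independent normal errors. Those lack the structure between these arrays, so they do not give its error rate here. Correlations across genes between arrays were 0.986 to 0.991 within groups and 0.971 to 0.983 between them. Along a second principal component SCI 3, sham 1 and sham 2 stood apart (-17.18 to -12.62, against 4.53 to 14.79). The number of arrays limits the precision. Members and lists were chosen with earlier results of these data known. All 7 members were named. From each related list the text names the called genes, at most 4 by smallest p, or 2 where none was called. Alternatives were other scalings, probe set rules, filters, variance models, the number in the sample titles as a covariate, and leaving out arrays.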

Additional observations from a re-analysis of the deposited data

Results flagged for a closer look

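Single arrays lay far from the other 3 of their group in 6 of 104 groups of 4 examined, where chance flags about 1 in 20. None of the 7 cholinergic and motor neuron genes was among them. Gucy1b1 had 6.80 on SCI 2, against 7.22 to 7.28 on the other SCI arrays. Pcyt1a had 6.10 on SCI 2, against 5.88 to 5.91. Lynx1 had 8.72 on sham 4, against 8.87 to 8.90 on the other sham arrays. Slc6a5 had 7.89 on sham 1, against 8.10 to 8.12. The mean level of the acetylcholine handling list was 5.88 on sham 1, against 5.95 to 5.97, and that of the astrocyte list was 9.58 on sham 4, against 9.517 to 9.523.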

How the results depend on the processing

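With 4 arrays a group, only Esrrg among the 7 members passed in the reported fit, and its call was lost only without SCI 3, sham 1 and sham 2 together. The number of members called was 2 with arrays centred, with eBayes trend and robust, and with the title number as covariate (Slc5a7 added), 3 of 4 when genes below the median level were left out (Slc18a3 also added), 0 without SCI 3, sham 1 and sham 2 (limma, 1 at an unadjusted p under 0.05), and 1 to 2 without single arrays. With the macrophage covariate it was 2, and 3 of 4 when genes below the median level were left out, 1 with quantile normalization or array weights, 0 without the 3 arrays (limma, 2 at an unadjusted p under 0.05), and 1 to 2 without single arrays. Relative to the pan-neuronal mean it was 2, and 1 (Isl1) with quantile normalization, eBayes trend and robust, the title number or without the 3 arrays, 0 of 4 when dim genes were left out, which removes Chat and Isl1 (limma, 0 also at an unadjusted p under 0.05), and 1 to 2 without single arrays. There Slc5a7 turned to -0.10 with the title number and, without single arrays, ran between -0.0096 (without SCI 1) and 0.20 (without SCI 4), against 0.07 with all. For the change of sign the cause was not tested. Calls over all genes numbered 2572, 1356 with the title number and 847 without the 3 arrays. Without single arrays they numbered 1703 (without SCI 2) to 2540. They rose to 2702 with arrays centred and to 3282 with eBayes trend and robust. When genes below the median level were left out they numbered 3181, among fewer genes tested. In these last settings the added calls of Slc5a7 and Slc18a3 came with more calls over all genes. Slc5a7 was also called with the title number, where calls over all genes fell to 1356, and without SCI 1, where they fell to 1947. Of 39 called genes of the related lists, 30 lost their call without the 3 arrays and 17 with the title number, and 0 changed sign under any alternative run. The title numbers were 4, 6, 7 and 8 in SCI and 5, 9, 10 and 11 in sham, so that covariate partly follows the groups. Leaving out the 3 arrays leaves fewer to test. A call lost in either setting therefore does not show that the difference is absent. Chat, Isl1 and Nos1 have no value when dim genes are left out. No paired analysis was possible because the labels give the groups no shared replicate numbers.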
